A study of Homo sapiens with 8 samples.

Results

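NEAT1 and MALAT1 are neighbouring long noncoding RNA genes on chromosome 11, and the data set described here is the open chromatin of their shared locus. Members were all deposited accessibility peaks that overlap either RefSeq gene body or the 50 kb on each side (GRCh38, chr11:65372798-65556516). This gave 31 peaks of 129536, 200 to 1165 bp wide. Accessibility was read with ATAC-seq: Tn5 transposase cuts DNA that is not packed away and tags the cut ends for sequencing. The cells were HEK293, a human embryonic kidney line, with the genotype eGFP-YAP in all libraries. The series description adds that such cells were kept without serum for 1 h before treatment, which then applies to both groups. Vehicle was given to the cells of 4 libraries, whose names carry 0 h. The other 4 were made after 1 h with 0.2 M sorbitol, a sugar alcohol used to cause hyperosmotic stress. As labelled, treatment and time thus differ together and cannot be told apart. Titles name only HEK293 and library names carry wt, and whether the eGFP-YAP cells are a clone is not given. The labels do not say whether the libraries of a group came from separate cultures, so p-values measure the spread between these libraries. Library names give replicates 1 and 2 of each group one first number and replicates 3 and 4 another. What that number marks is not given, and if such pairs share a culture, tests with n = 4 give p-values that are too small.

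NEAT1 RNA is the scaffold of paraspeckles, nuclear bodies that hold RNA-binding proteins such as NONO and SFPQ and that change in number under stress. Its short and long forms begin at the same start, and the long form is the one that builds the body. MALAT1 RNA collects in nuclear speckles, which store splicing factors. A tRNA-like small RNA, MASCRNA, is cut from the 3′ end of MALAT1, and TALAM1 is its antisense transcript. Both genes lie on the plus strand and are transcribed at high levels in many cell types.

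The NEAT1 body spans chr11:65422798-65445540 (22743 bp) and the MALAT1 body chr11:65497738-65506516 (8779 bp), with 52197 bp between them. Little of either body was called as open chromatin. Peaks covered 3.2% of NEAT1 and 3.85% of MALAT1. A stretch of 8978 bp over MALAT1 (chr11:65498076-65507053) held no peak, and neither did 13004 bp over the second part of NEAT1 (chr11:65433306-65446309). MIR612 and MASCRNA, both inside these stretches, therefore had no peak over them.

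RefSeq's promoter table (GRCh38.p14) matched 1 of the 2 genes and lists 2 starts for MALAT1, which are shown because they differ in accessibility. The start at position 65497738 lies in the strongest peak of either gene, whereas the window of the start at 65499045 lies 720 bp from the nearest peak. A neighbour, FRMD8, is shown as a GC-rich promoter inside a peak that was not called changed. Each window runs from 250 bases before to 50 bases after the start, 5′ to 3′ on the plus strand, and capitals mark exact matches to the motifs searched.
MALAT1, chr11:65497488-65497787: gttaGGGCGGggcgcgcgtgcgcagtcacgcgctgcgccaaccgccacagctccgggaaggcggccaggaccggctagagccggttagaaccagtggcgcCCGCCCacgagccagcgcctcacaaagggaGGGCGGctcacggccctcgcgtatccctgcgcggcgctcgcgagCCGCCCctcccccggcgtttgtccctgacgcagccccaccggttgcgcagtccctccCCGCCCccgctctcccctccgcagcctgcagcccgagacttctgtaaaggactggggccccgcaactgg
MALAT1, chr11:65498795-65499094: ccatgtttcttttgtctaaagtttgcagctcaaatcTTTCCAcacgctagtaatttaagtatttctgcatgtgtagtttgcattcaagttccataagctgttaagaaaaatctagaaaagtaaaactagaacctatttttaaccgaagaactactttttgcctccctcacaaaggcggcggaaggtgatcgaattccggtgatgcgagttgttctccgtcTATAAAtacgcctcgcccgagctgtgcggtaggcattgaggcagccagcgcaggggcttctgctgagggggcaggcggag
FRMD8, chr11:65386387-65386686: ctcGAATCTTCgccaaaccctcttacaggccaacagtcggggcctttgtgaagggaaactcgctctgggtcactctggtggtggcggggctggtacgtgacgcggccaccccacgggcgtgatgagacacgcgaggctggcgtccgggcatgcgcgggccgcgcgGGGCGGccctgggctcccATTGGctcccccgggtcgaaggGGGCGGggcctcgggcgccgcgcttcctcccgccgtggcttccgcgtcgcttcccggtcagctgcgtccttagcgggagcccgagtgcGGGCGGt

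The MALAT1 window inside the peak was 73.7% G and C with 37 CG steps, close to FRMD8 (72% and 38). The window without a peak had 46% and 14, against medians of 58.7% and 14 over 35116 RefSeq promoters. The first MALAT1 window held 5 GC boxes (GGGCGG, either strand), a motif found in 45% of promoters. It had no TATAAA. The other window held TATAAA from 30 to 25 bases before the start (11.5% of promoters hold it anywhere) and 1 NFAT core (TGGAAA, 20.7%). All shares of promoters given here count a match at any place in the window, on either strand. FRMD8 held 3 GC boxes, 1 CCAAT (34.6%) and 1 GAANNTTC, the heat shock element core (6.77%). Also searched on both strands, without a match in these 3 windows, were TGANTCA (AP-1, 7.71% of promoters), CATTCC (TEAD, 14%), TGACGTCA (1.85%), CCGGAAG (ETS, 10.3%), CACGTG (7.26%), CGCATGCG (NRF1, 2.02%) and AAGATGGC (YY1, 2.89%). A match is a string of letters and does not show binding.

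Vehicle libraries held 14757015 to 19831471 counts in peaks and sorbitol libraries 11522266 to 14355727. Every sorbitol library was thus smaller than every vehicle library, so depth and treatment differ together. Totals are scaled for, but an effect of depth on the calls was not tested. The lowest count at any locus peak was 5. Signal is given as TMM-scaled CPM, counts divided by library totals that were adjusted with the trimmed mean of M-values, and changes as log2 fold changes of sorbitol over vehicle. Changes were tested with edgeR's quasi-likelihood test over 129487 peaks, with Benjamini-Hochberg adjustment and a threshold of 0.05. Lower and higher peaks made up 13.1% and 16% of all tested peaks. Higher peaks were 54.9% of calls, against 67.4% when libraries were scaled by totals alone and 79.7% with factors from gene-end peaks, those no more than 1 kb from a RefSeq gene's start or end. With the latter factors the series median was 0.19 in place of 0.01 (log2), so a direction here is relative to the scaling. Of 8 kidney and epithelial marker genes, 7 had a peak at a gene end (PAX2 had none). So did 2 of 4 blood genes, 1 of 3 liver genes and 1 of 3 muscle genes, with MYOD1 at 23.6 and SPI1 at 24.8 CPM in vehicle. Open gene ends alone thus did not set HEK293 apart from these lineages. The kidney and epithelial list was drawn up as genes open at an end in HEK293, so its share was largely set by that choice. In bulk chromatin, fewer cells with an open site and a less open site per cell cannot be told apart.

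Accessibility fell at many peaks of the locus after sorbitol. Of the 31 peaks, all of which passed the count filter, 14 were lower (45.2%, against 13.1% of all tested peaks) and 1 was higher (16% of all). The other 16 were not called, and 23 of 31 had a negative log2 fold change. The median log2 fold change was -0.41, against 0.01 over all tested peaks, -0.17 over the 25201 at gene ends and -0.07 over chromosome 11, where 16.6% of peaks were lower. Every sorbitol library lay below every vehicle library at 14 locus peaks (12.6% of all tested peaks) and above at 1 (13.7%). Falls were modest: 1 peak fell at least 2-fold, as did 0.881% of all peaks. With factors from peaks on unplaced contigs only 2 locus peaks were lower, and with gene-end factors 8, while the locus median was -0.46 and -0.23. Library totals alone gave 10 lower peaks and a median of -0.33, and the loess offset 14 and -0.295. The smallest median, -0.19, came with a minimum mean of 50 counts, which leaves 22 locus peaks, 11 of them lower. Of the lower peaks described one by one here, only that 845 bp beyond the MALAT1 end kept its call with contig factors (-0.82, edgeR adjusted p = 0.0298).

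**Figure D1:**
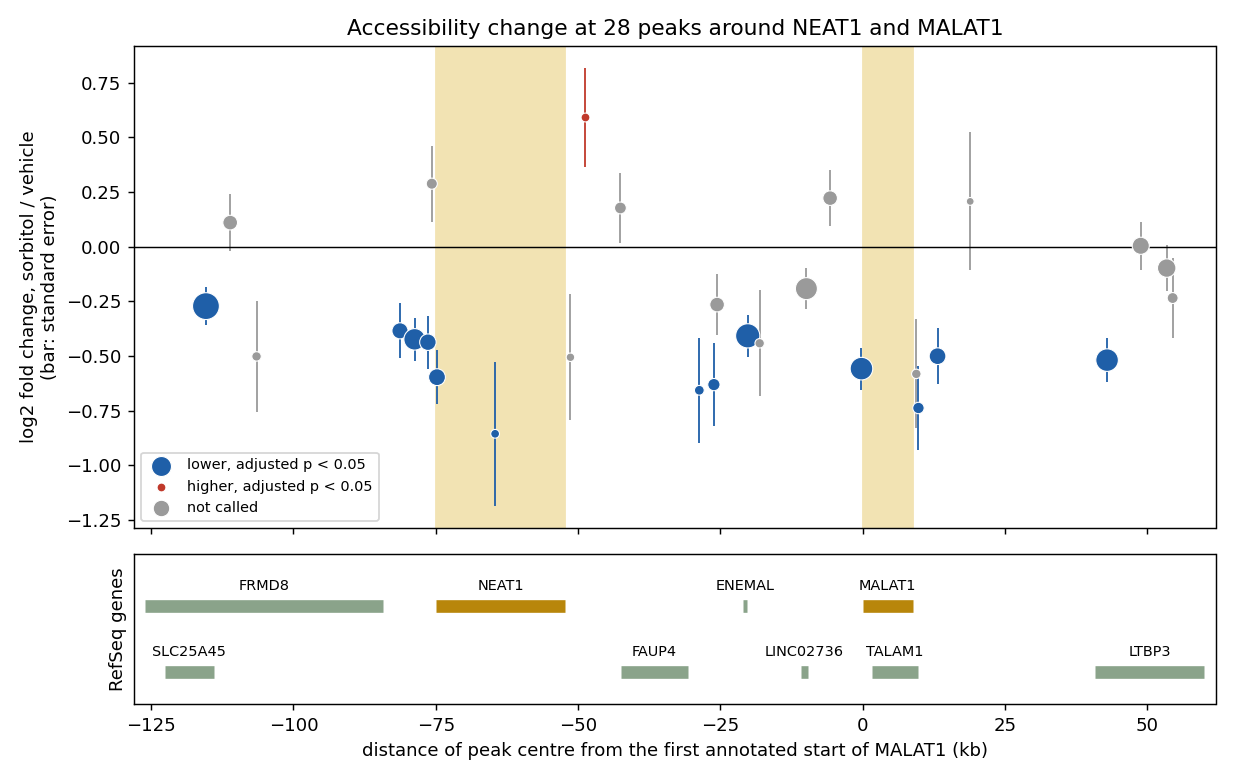
Log2 fold change (sorbitol over vehicle, bars standard error) of 28 of the 31 peaks against the distance of the peak centre from the first MALAT1 start in kb; dot area grows with mean vehicle signal, and shaded spans are NEAT1 (left) and MALAT1 (right). Gene bars below are cut at the edges of the plot; 13 of those drawn are lower (blue), 1 is higher (red) and 14 were not called (grey).

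Strong peaks fell more often than weak ones across the series, and the locus is rich in strong peaks. By mean signal over all libraries, 14 of the 31 peaks lay in the 2 strongest deciles of the series, and 9 of these were lower (64.3%), where 35.6% of all peaks in those deciles were. Of the 17 weaker locus peaks, 5 were lower (29.4%) against 7.52% of all peaks in deciles 1 to 8. The locus share was therefore above the series share in both strength classes. Shares of calls also depend on how precisely a peak is measured. Median log2 fold changes were -0.40 at strong and -0.44 at weaker locus peaks, against -0.13 and 0.06 in the series. Change and mean signal had a Spearman correlation of 0.2 over locus peaks and -0.22 over all tested peaks. Weaker locus peaks thus did not fall less in size. Neighbouring peaks are not independent of each other, and no test of the locus as a set was made. Among locus peaks between genes 6 of 11 were lower, against 8.05% of all intergenic peaks. Inside genes it was 3 of 7, against 8.58%. At gene ends it was 5 of 13, against 32.8%, which is near the share for that class. Classes use the outer ends of RefSeq genes, so the peak at the printed FRMD8 start counts as inside a gene.

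**Figure D2:**
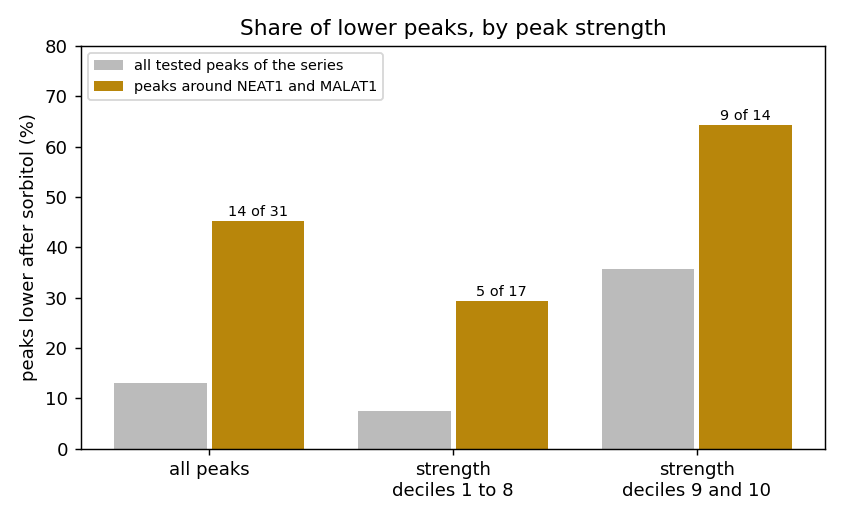
Percentage of peaks called lower after sorbitol in the whole series (grey) and around NEAT1 and MALAT1 (gold), for all peaks and by strength class. The gold bars stand at 45.2%, 29.4% and 64.3%, and the grey bars at 13.1%, 7.52% and 35.6%.

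The start of NEAT1 lost accessibility. The peak over the start (chr11:65422665-65423263) held 13.3, 11.9, 11.1 and 13.8 CPM in vehicle libraries 1 to 4, and 9.16, 8.24, 8.03 and 7.63 after sorbitol. All sorbitol libraries lay below all vehicle libraries. Mean signal was 12.5 ± 1.23 CPM in vehicle and 8.27 ± 0.65 CPM after sorbitol (SD, n = 4). The log2 fold change was -0.60 (SE 0.12, edgeR adjusted p = 0.000178). Peaks within 1 kb of a gene start of known strand were lower in 39.1% of cases, so a fall at a start was common. Their median log2 fold change was -0.19 and their lower quartile -0.41, so the fall at NEAT1 was larger than most. With contig factors the value was -0.64 with a larger SE of 0.245, and it was not called (edgeR adjusted p = 0.0684).

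The chromatin just before NEAT1 did not move as a block. A peak 580 bp upstream of the start (chr11:65421886-65422218) held 5.51, 4.10, 4.33 and 3.22 CPM in vehicle and 5.91, 5.60, 5.11 and 4.40 after sorbitol. The groups overlapped, and the log2 fold change of 0.29 (SE 0.17) did not pass (edgeR adjusted p = 0.218). With gene-end factors it was called higher, at 0.47 (adjusted p = 0.0375). Beyond it, 3 peaks at 1178, 3345 and 6111 bp upstream were all lower. They had log2 fold changes of -0.44, -0.42 and -0.39 (SE 0.10 to 0.13, edgeR adjusted p = 0.00506, 0.000873 and 0.0169), with no overlap between the groups. The strongest of them (chr11:65418611-65419453) went from 21.6 ± 1.20 to 16.1 ± 1.57 CPM (SD, n = 4). Without sorbitol 3 the farthest (chr11:65416242-65416687) had -0.31 and was not called (edgeR adjusted p = 0.0814), nor was it with library totals (-0.30, 0.0565). With gene-end factors neither it nor the nearest of the 3 was called (-0.21 and -0.26, adjusted p = 0.183 and 0.0878).

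Inside NEAT1 there was 1 peak besides that at the start (chr11:65433045-65433305), at 45.6% of the gene's length. It was weak, with 2.24, 1.57, 1.29 and 2.67 CPM in vehicle and 1.33, 1.87, 0.418 and 0.618 after sorbitol. The groups overlapped, since sorbitol 2 lay above vehicle 2 and 3 and sorbitol 1 above vehicle 3. The peak was called lower (log2 fold change -0.86, SE 0.33, edgeR adjusted p = 0.0436), but the call rested on single libraries. Adjusted p-values were 0.11, 0.141, 0.184 and 0.154 without vehicle 1, vehicle 4, sorbitol 3 and sorbitol 4. It was also not called with library totals (0.0782), gene-end factors (0.128) or the DESeq2 Wald test (0.0779).

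Within 10 kb beyond the 3′ end of NEAT1 no peak was called lower. The peak 770 bp past the end (chr11:65446310-65446512) held 1.56 to 1.81 CPM in vehicle and 1.01 to 1.44 after sorbitol. Its log2 fold change of -0.51 (SE 0.29) did not pass (edgeR adjusted p = 0.19), although the groups did not overlap. The peak 3158 bp past the end (chr11:65448698-65449099) was the only higher one of the 31, with 2.38, 1.57, 1.91 and 2.19 CPM in vehicle and 2.92, 3.5, 2.76 and 2.89 after sorbitol. Every sorbitol library lay above every vehicle library. The log2 fold change was 0.59 (SE 0.23, edgeR adjusted p = 0.0425). The adjusted p was 0.0606 with the replicate block, 0.0878 with the loess offset and 0.0776 with the DESeq2 Wald test, and it was 0.137, 0.0907, 0.0649, 0.127, 0.0536 and 0.0636 without vehicle 2, vehicle 3 and sorbitol 1 to 4. Intergenic peaks 1 to 10 kb past a gene end of known strand numbered 5396, of which 12.2% were higher and 15.6% lower, so 1 higher peak is not unusual there.

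The strongest peak within 10 kb past the NEAT1 end lay 9350 bp away (chr11:65454890-65455490), at the edge of FAUP4, a pseudogene of the ribosomal protein gene FAU. It held 5.65, 4.52, 4.38 and 6.09 CPM in vehicle and 5.50, 6.06, 6.36 and 5.29 after sorbitol. The groups overlapped, and the log2 fold change was 0.18 (SE 0.16, edgeR adjusted p = 0.44).

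The start of MALAT1 fell 1.47-fold, and that of NEAT1 1.51-fold. Its peak (chr11:65497000-65498075), which holds the GC-rich window printed above, had 25.8, 23.7, 23.9 and 23.1 CPM in vehicle and 17, 15.1, 17.4 and 16.0 after sorbitol. The groups were well apart. The mean went from 24.1 ± 1.17 to 16.4 ± 1.04 CPM (SD, n = 4), with a log2 fold change of -0.56 (SE 0.10, edgeR adjusted p = 1.08e-05), the smallest p-value at the locus. With contig factors it was -0.62 with a larger SE of 0.238, and it was not called (edgeR adjusted p = 0.072). Just upstream, peaks 5489 and 9423 bp before the start were not called, at 0.22 (edgeR adjusted p = 0.195) and -0.19 (0.124). With gene-end factors the first (chr11:65491821-65492249) was called higher, at 0.40 (adjusted p = 0.0125). Without sorbitol 4 the latter (chr11:65487415-65488315) had -0.26 and was called (edgeR adjusted p = 0.0439). It lies over the start of LINC02736, a long noncoding RNA on the minus strand.

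Past the MALAT1 end, 2 of 3 peaks within 10 kb fell. The peak 845 bp beyond the end (chr11:65507361-65507737), which overlaps the start region of the antisense TALAM1, held 4.49, 5.12, 4.59 and 4.52 CPM in vehicle and 3.5, 2.57, 3.35 and 1.92 after sorbitol. The groups did not overlap, and the log2 fold change was -0.74 (SE 0.19, edgeR adjusted p = 0.00293). ATAC-seq has no strand, so MALAT1 and TALAM1 cannot be told apart here. The peak 4108 bp beyond the end (chr11:65510624-65511188) held 13.1, 13.9, 11.1 and 10.9 CPM in vehicle and 9.00, 8.09, 10.5 and 7.22 after sorbitol. It too was separated, with a log2 fold change of -0.50 (SE 0.13, edgeR adjusted p = 0.00209). A weaker peak 538 bp beyond the end (chr11:65507054-65507295) held 2.19 to 3.56 CPM in vehicle and 1.24 to 2.09 after sorbitol. It had -0.58 and missed the threshold (edgeR adjusted p = 0.0716; 0.0499 without vehicle 4 and, at -0.70, 0.0309 with the loess offset).

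**Figure D3:**
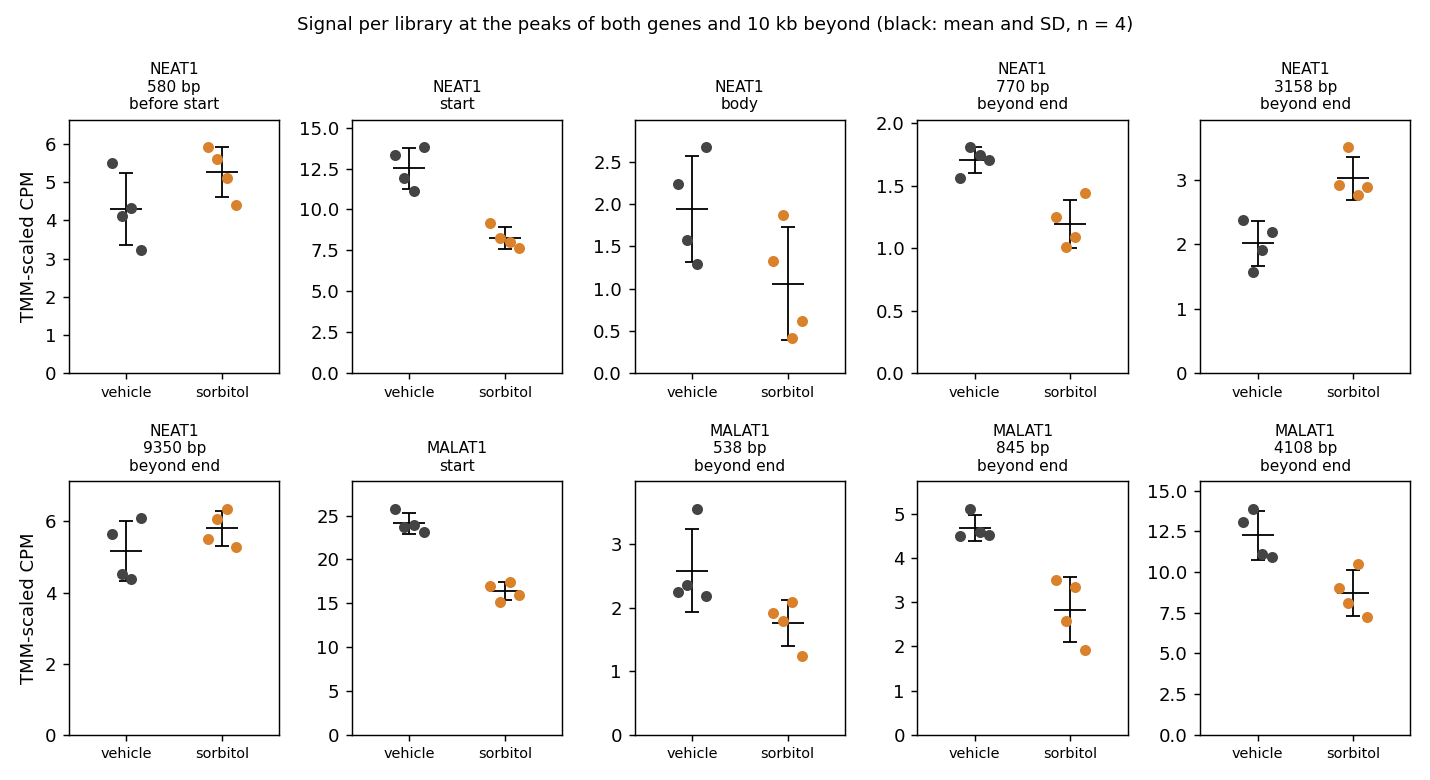
TMM-scaled CPM per library at the 10 peaks in the start, body, end and near downstream zones (up to 10 kb past the end) of NEAT1 and MALAT1, each panel with its own axis from 0; dots are libraries and black marks the mean and SD (n = 4). The 3 MALAT1 panels past its end have lower means after sorbitol, and NEAT1 at 3158 bp past its end has a higher one.

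Ratios between peaks within a library do not depend on how libraries are scaled, so 3 were compared with exact two-sided permutation tests over libraries, adjusted over the 3. The log2 ratio of the NEAT1 start to the MALAT1 start was -0.95 ± 0.15 in vehicle and -0.98 ± 0.12 after sorbitol (SD, n = 4). The groups overlapped, and the difference of -0.04 did not pass (exact permutation p = 0.714, adjusted 0.714). For MALAT1, the log2 ratio of its start to the peak 4108 bp past its end was 0.98 ± 0.16 and 0.92 ± 0.17 (SD, n = 4), with a difference of -0.06 (exact permutation p = 0.6, adjusted 0.714).

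For NEAT1, the log2 ratio of its start to the peak 9350 bp past its end was 1.23, 1.39, 1.34 and 1.18 in vehicle and 0.73, 0.44, 0.34 and 0.52 after sorbitol. No sorbitol value reached a vehicle value. The difference of -0.78 had an exact permutation p of 0.0286, the smallest that 4 against 4 libraries allow, and 0.0857 after adjustment, which does not pass. With all peaks of a zone summed, which takes in the upstream peak at 0.29 and the peak at 0.59, the NEAT1 difference was -0.50 (exact permutation p = 0.0286, adjusted 0.0429). The same sums gave 0.24 for the NEAT1 start against the MALAT1 start, of the opposite sign (exact permutation p = 0.0286, adjusted 0.0429).

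**Figure D4:**
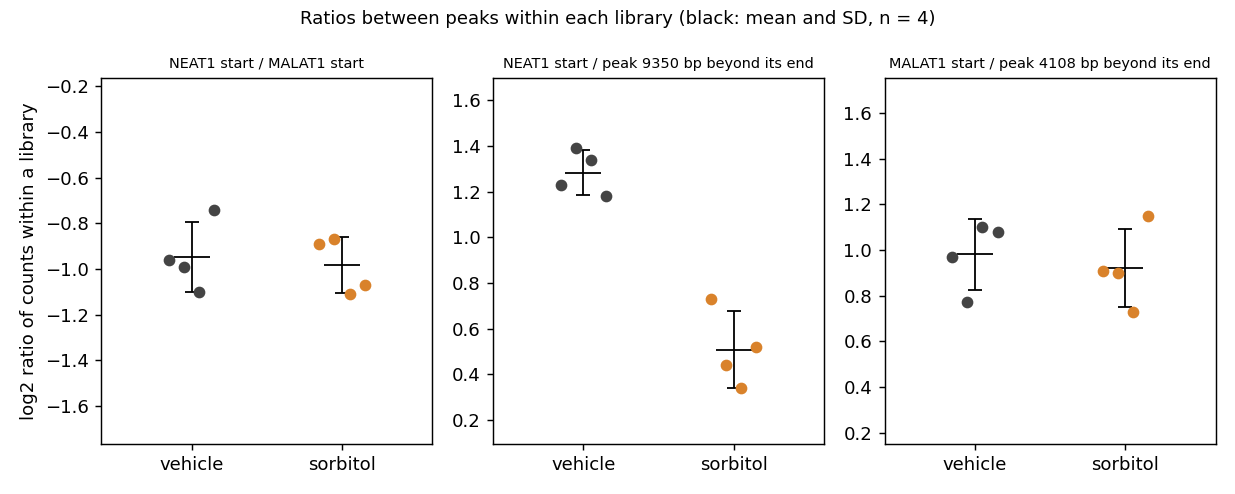
Log2 ratio of counts between pairs of peaks within each library, with vehicle and sorbitol libraries as dots and the mean and SD in black (n = 4); the axes span equal ranges and do not start at 0. The groups are apart in the middle panel, NEAT1 start over the peak 9350 bp past its end, and overlap in the other panels.

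The 52197 bp between the genes held 10 peaks, of which 3 were lower, 1 was higher and 6 were not called. The lower ones lay in the middle of the interval. The strongest (chr11:65476997-65478115) overlaps the start of ENEMAL, a long noncoding RNA gene on the minus strand, and had 24.4, 28.4 and 30.9 CPM as lowest, median and highest vehicle values. After sorbitol these were 18, 20.8 and 24.5, so sorbitol 4 just exceeded vehicle 4. Its log2 fold change was -0.41 (SE 0.10, edgeR adjusted p = 0.000978). The others were intergenic and weak: -0.63 at chr11:65471406-65471820 (edgeR adjusted p = 0.00871; 0.069 without sorbitol 1) and -0.66 at chr11:65468900-65469205 (0.0322). The latter was not called when any of vehicle 1, 3 or 4 or sorbitol 2, 3 or 4 was left out (adjusted p = 0.129, 0.0577, 0.064, 0.0544, 0.0536 and 0.0706). With gene-end factors neither of these intergenic peaks was called (0.0681 and 0.125), and the latter was not with library totals (0.0647) or the DESeq2 Wald test (0.0518). Its neighbour at chr11:65471912-65472436 had -0.27 (edgeR adjusted p = 0.155; 0.0413 without vehicle 3), and a weak peak at chr11:65479552-65479751 had -0.44 (0.17).

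The other neighbours moved unevenly. A weak peak beyond MALAT1 (chr11:65516542-65516742) had a log2 fold change of 0.21 and was not called (edgeR adjusted p = 0.672). Of the 4 locus peaks that overlap LTBP3, which codes for a protein that binds latent TGF-beta, 1 fell (chr11:65540168-65541213, -0.52, SE 0.10, edgeR adjusted p = 7.41e-05) and 3 were not called, with 0.00, -0.10 and -0.24.

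On the NEAT1 side, SLC25A45, of the mitochondrial carrier family, has both its listed starts in the strongest peak of the window (chr11:65381791-65382955). That peak had 34.8 ± 1.98 CPM in vehicle and 28.8 ± 1.33 after sorbitol (SD, n = 4; log2 fold change -0.27, SE 0.09, edgeR adjusted p = 0.0125). The call did not hold when libraries were scaled by totals (-0.19, adjusted p = 0.0641), with the loess offset (-0.11, 0.299) or with gene-end factors (-0.10, 0.351). The peak at the FRMD8 promoter printed above (chr11:65386366-65386897) held 9.02 ± 1.2 and 9.74 ± 1.6 CPM (SD, n = 4). Its log2 fold change of 0.11 (SE 0.13) did not pass (edgeR adjusted p = 0.579). FRMD8 codes for a partner of the iRhom proteins. A weak peak further inside FRMD8 (chr11:65391138-65391384) had -0.50 (edgeR adjusted p = 0.131; 0.0335 without vehicle 4).

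Over the 8 libraries, log2 CPM of the NEAT1 and MALAT1 start peaks had a Pearson r of 0.9043. It only describes libraries that share treatment and depth. At both peaks every sorbitol library lay below every vehicle library, so a high r follows from that difference between groups. Whether the start peaks vary together within a group was not tested. Among 14092 peaks at ends of protein-coding genes with a mean of at least 50 counts, those most like the NEAT1 start were at CIZ1 and DNM1 (r = 0.9904), ZNF747 (0.9861) and ATAD3A (0.9829). Most like the MALAT1 start were peaks at ACP4 (0.9968), STAT6 (0.9900) and RABL6 and AJM1 (0.9896). These 6 peaks had log2 fold changes of -0.52 to -1.32. They were picked for following a start peak that fell after sorbitol, so their falls follow from the choice. Correlation also ignores the size of a change.

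Many peaks at ends of genes for proteins of the bodies that these RNAs build or enter were also lower. The lists were chosen with earlier results of these data known. Their shares, here and below, were counted with TMM scaling alone and were not compared at equal peak strength. Strong peaks were lower more often in the series, with 35.6% in its 2 strongest deciles. Of 52 peaks at the ends of 35 paraspeckle protein genes, 37 were lower, none was higher and 15 were not called (71.2% lower, against 32.8% lower and 8.75% higher of all tested gene-end peaks), with a median log2 fold change of -0.44 against -0.17. The smallest p-value was at AKAP8L, a nuclear matrix protein (chr19:15418659-15419494), which went from 58.9 ± 4.30 to 32.2 ± 3.02 CPM (SD, n = 4, log2 fold change -0.87, edgeR adjusted p = 1.67e-11). Weak peaks at an end of NONO (chrX:71301561-71301877) and of EWSR1 (chr22:29301137-29301348) fell at least 2-fold, by 1.06 and 1.04 on the log2 scale (edgeR adjusted p = 0.000983 and 0.00155). Of all gene-end peaks 1.32% fell as far. The upward peak with the smallest p-value was at CELF6 (chr15:72319584-72320770), with 0.16, and was not called (edgeR adjusted p = 0.192).

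Of 44 gene-end peaks at 28 nuclear speckle genes, 28 were lower, none was higher and 16 were not called (63.6% lower, against 32.8% lower and 8.75% higher of all; median log2 fold change -0.37 against -0.17). U2AF2, a subunit of the factor that binds the 3′ splice site, had the smallest p-value (chr19:55653553-55655278). It went from 55.3 ± 11.2 to 27.9 ± 2.23 CPM (SD, n = 4, log2 fold change -0.99, edgeR adjusted p = 3.26e-11). Vehicle libraries 1 to 4 held 64.8, 65.1, 47.5 and 43.9 CPM there. Replicates 1 and 2, whose names share a first number, thus lay above replicates 3 and 4, and n = 4 may overstate the independent libraries. Summed over the NEAT1 and MALAT1 locus, vehicle libraries 1 to 4 held 326, 322, 304 and 301 CPM, split the same way. Sorbitol libraries 1 to 4 held 258, 257, 244 and 258 CPM there, without such a split. A weak peak at an end of SRRM2, a scaffold of speckles (chr16:2772085-2772284), fell by 1.25 on the log2 scale (edgeR adjusted p = 0.00229). SRSF3 had the upward peak with the smallest p-value (chr6:36605915-36606270), at 0.49 and not called (edgeR adjusted p = 0.129). Among 14 other long noncoding RNA genes whose RNA is found in the nucleus or which are often studied with NEAT1 and MALAT1, 13 had 17 peaks. Of these, 11 were lower, none was higher and 6 were not called (64.7% lower, against 32.8% of all gene-end peaks), with a median of -0.37 against -0.17. TUG1 led (chr22:30968570-30969519, log2 fold change -0.59, edgeR adjusted p = 7.66e-06), and GAS5 had 0.09 (chr1:173867477-173869091, edgeR adjusted p = 0.402). NEAT1 and MALAT1 starts, at -0.60 and -0.56, lay within the range of this list (-0.70 to 0.09).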

How the data were processed

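The authors deposited 1 table of raw counts per peak for 8 libraries, with no normalization; how peaks were merged and whether reads or fragments were counted is not given in the sources used here. The submitters' processing notes name Trim Galore 0.6.10, BWA 0.7.17, SAMtools 1.22, Picard, MACS2 2.2.9.1, bedtools, deepTools 3.5.4 and DESeq2, and builds hg38 and GRCh38, without roles. Libraries were paired-end Omni-ATAC, per the labels. Table starts count from 0, since the smallest is 0, and were raised by 1. Members and gene lists were chosen with earlier results of these data known. Every peak of the genes and 10 kb beyond was described, then other locus peaks past the threshold and 2-fold, the peak at each neighbouring gene (3 locus peaks are counted but not reported one by one here), and per list the smallest p-value in each direction.

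Counts were fitted in R 4.3.3 with edgeR 4.0.16 (filterByExpr, minimum count 10 and total 15, TMM, treatment as the only term). SE is the log2 fold change over the root of the F statistic. Ratios used a pseudocount of 0.5. Alternatives were other scalings (DESeq2 size factors, totals, loess, gene-end and contig peaks), the DESeq2 1.42.0 Wald test, filters, a 0.01 threshold, blocks, and leaving out each library. The fits were also run on simulated counts in which few peaks changed, all 2-fold and as many up as down. Changes in these data were far more numerous and mostly smaller, so the simulation does not check the scaling or the calls made here. Totals of at least 11522266 counts per library make counting error small for strong peaks, though reads of 1 molecule copied by PCR would be counted apart, if duplicates were kept.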

Additional observations from a re-analysis of the deposited data

Results flagged for a closer look

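Among 56 groups of 4 libraries at the locus, 3 had a library far from the other 3, where chance gives about 2.8. Vehicle 3 was low at the SLC25A45 start peak (chr11:65381791-65382955), with 31.9 CPM against 35.5 to 36.1, still above the highest sorbitol value of 29.8. Past the MALAT1 end, vehicle 3 was high at chr11:65507054-65507295, with 3.56 against 2.19 to 2.35 CPM. Vehicle 2 was high at chr11:65507361-65507737, with 5.12 against 4.49 to 4.59 CPM.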

How the results depend on the processing

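Over 28 of the 31 peaks, 524 results under alternatives were computed: 456 kept direction and side of the threshold, 52 lost the call, 7 gained one and 9 changed sign, all 9 at peaks not called. The count of 14 lower locus peaks became 8 with scaling factors from gene-end peaks and 2 with factors from peaks on contigs outside the chromosomes, of which 1 is at chr11:65507361-65507737. There the start peaks had -0.64 (NEAT1, SE 0.245, edgeR adjusted p = 0.0684) and -0.62 (MALAT1, SE 0.238, 0.072), while the locus median was -0.46. In the main fit they had -0.60 (SE 0.123) and -0.56 (SE 0.096). With contig factors the falls were thus no smaller and the errors were larger. The cause of the larger errors was not tested. With contig factors 2 locus peaks were called in all. The count of 1 higher locus peak became 3 with gene-end factors. It became 0 at the 0.01 threshold, with the loess offset, contig factors, the DESeq2 Wald test, a mean of at least 50 counts (which tests 22 locus peaks and leaves it out) and the replicate block. Leaving out each library gave 0 to 1 higher, 11 to 14 lower and 11 to 15 changed locus peaks. Lower peaks of at least 2-fold numbered 2 with the loess offset, 0 with the count minimum and 1 to 2 without single libraries (2 without vehicle 3 or sorbitol 2).

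Over the series, 37717 changed peaks became 23272 at 0.01, 13897 with contig factors, 21406 with the count minimum, and 30555 to 38658 without single libraries. The 17016 lower peaks became 11033, 5078 and 11094 in those settings, 8670 with gene-end factors and 13876 to 17523 without single libraries. The 20701 higher peaks became 12239, 8819 and 10312, 34038 with gene-end factors and 16679 to 21135. The threshold accounts for the counts at 0.01.

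With zone sums the ratio differences were 0.243 (starts), -0.495 (NEAT1) and 0.011 (MALAT1), and without single libraries they ran from -0.088 to 0.033, -0.85 to -0.717 and -0.133 to 0.005. The LTBP3 peak at chr11:65546167-65547045 had -0.011 with DESeq2 size factors, -0.011 with the Wald test, -0.044 with contig factors and -0.033 to 0.047 without single libraries. That at chr11:65550835-65551498 had 0.01 with the loess offset and 0.078 with gene-end factors.

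Libraries of the same number did not deviate together (correlations 0.00611, 0.0091, -0.0583 and -0.237). With the replicate block, 34444 peaks of the series and 14 lower locus peaks were called, and the NEAT1 ratio difference of -0.775 had p = 0.125 in the exact sign-flip test, whose floor with 4 pairs is that value. A block on the first number of the library names called 37359 peaks of the series, and 14 lower and 1 higher at the locus. That block cannot show whether libraries sharing the number came from one culture.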
